A study of Mus musculus with 4 samples.

Results

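Skeletal lineage transcription factors are the nuclear proteins that commit mesenchymal cells to cartilage or bone. The 10 genes described here were Sox9, Sox5, Sox6, Runx1, Runx2, Msx1, Msx2, Dlx5, Sp7 and, as a readout enzyme of the bone lineage, Alpl. They were followed in fibroblasts of the mouse, on 4 single-colour arrays (Affymetrix Mouse Gene 2.0 ST), each with the RNA of 1 sample. A member was taken from the rows of the expression table that the platform annotation assigns to that gene symbol alone, and the row with the highest mean log2 intensity was used where a gene had more than 1. By this rule 8 of the 10 members were measured, among 22180 genes in all. Runx2 had no row under its name in the annotation used here, and Msx1 shared both of its rows with its antisense transcript Msx1os, so neither is given a value. Loss of Slc39a13 is known to disturb bone and cartilage, which is why these genes are of interest in this series.

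The arrays labelled Zip13KO carried RNA of fibroblasts from Zip13-/- mice (2 biological replicates), and the WT arrays carried RNA of fibroblasts from wild-type mice (2 biological replicates). Zip13 is the protein of Slc39a13, a zinc transporter of the secretory pathway. Strain, age, the tissue of origin and the culture conditions are not given in the labels, nor is any treatment, nor whether replicates came from separate animals. The p-values below are set by how far these particular samples spread, and that spread may be technical. The study's stated interest was local zinc balance and the structure of the Golgi and the region around the nucleus.

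Sox9 is the master regulator of the chondrocyte lineage, and Sox5 and Sox6 are its partners, which lack an activation domain of their own and strengthen Sox9 on cartilage enhancers. Runx2 commits cells to the osteoblast lineage and Sp7 (osterix) acts after it, while Runx1 has its best known role in blood formation and is also present in skeletal progenitors. Msx1, Msx2 and Dlx5 are homeodomain factors that respond to bone morphogenetic proteins (BMPs) in limb and skull mesenchyme. Alpl encodes the tissue-nonspecific alkaline phosphatase that mineralising cells carry on their surface.

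The overall intensity of the arrays was alike, with a median between 94.5 and 96.1 per array over 41345 rows. Over all rows, arrays of one genotype had a Pearson's r of 0.994 in Zip13KO and 0.994 in WT, and arrays of different genotypes had 0.983 to 0.985. The number of arrays limits the precision. Of 12 fibroblast markers, 10 lay above the array's median on at least 2 arrays, and Lum and Fap lay below it on all 4. That median is over all rows, 16010 of which have no gene symbol. A value above it does not show that a transcript was present. Slc39a13 itself had log2 intensities of 8.89 and 8.98 on the Zip13KO arrays, against 8.94 and 8.85 on the WT arrays, a difference of 0.04 (95% interval -0.12 to 0.20, adjusted p = 0.820). Which exons its probes cover, and whether these are the altered ones, is not given, so the genotype labels could not be checked with it.

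Sox9 was higher in Zip13KO fibroblasts, and it was the only one of the 8 measured members to pass the test. No member passed downward in limma, where 2 (Msx2 and Alpl) had an unadjusted p under 0.05. The threshold was an adjusted p under 0.05 in limma, a moderated linear model, with Benjamini-Hochberg adjustment over all 22180 genes. Among all genes 17.1% passed it, 7.00% upward and 10.1% downward, so 1 of 8 is near the share of genes in general. The median difference over the 8 members was 0.00395 log2 units, and that over all genes was -0.00341. In bulk RNA, a change in the number of cells that carry a transcript and a change in the amount per cell cannot be told apart.

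The log2 intensity of Sox9 was 10.51 and 10.40 on the Zip13KO arrays, against 10.07 and 10.13 on the WT arrays. Both Zip13KO arrays lay above both WT arrays, and the gap between the groups was wider than the gap between replicates. The difference was 0.35 log2 units (SE 0.07, 95% interval 0.21 to 0.50), which is 1.28-fold, with an adjusted p of 0.00101. It passed in all 13 alternative fits, with differences from 0.30 to 0.40 and adjusted p from 2.28e-07 to 0.0388. Of the 3786 genes past the threshold, 53.0% differed by at least as much as Sox9 in one direction or the other. With 2 arrays per group the smallest two-sided p of an exact permutation test is 0.333, and calls therefore rest on the moderated model.

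**Figure D1:**
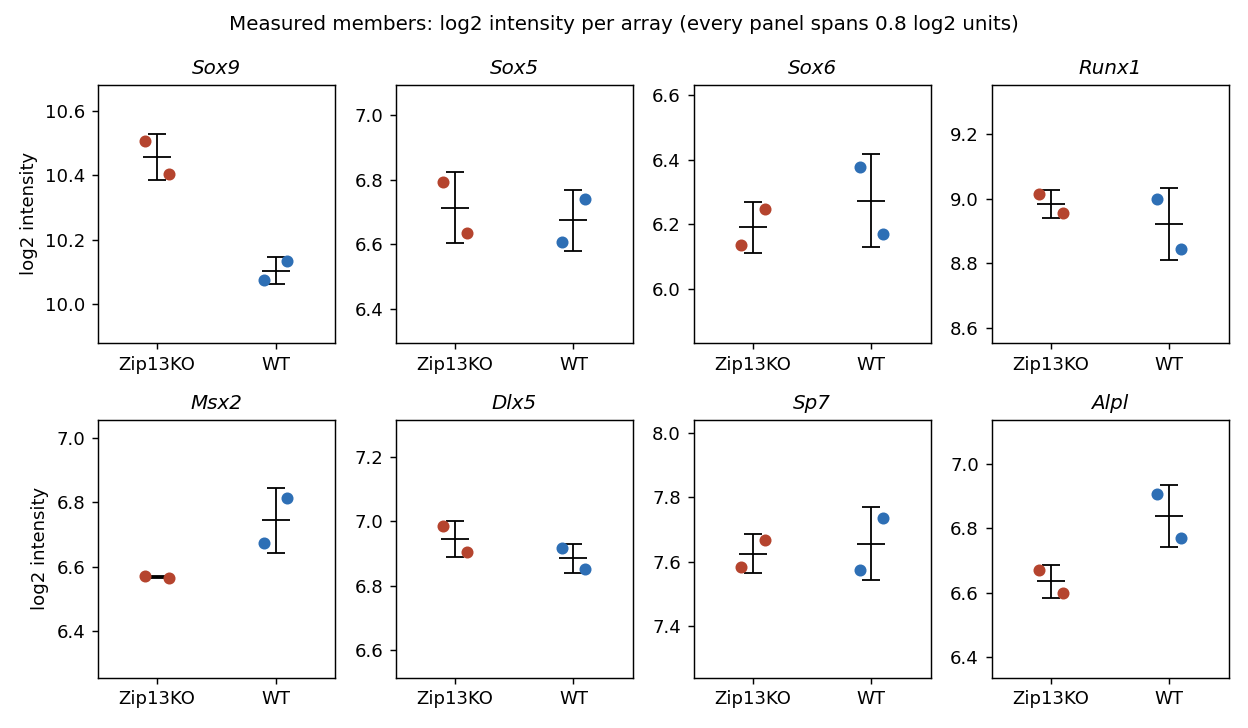
Log2 intensity of the 8 measured members on each array, with replicate 1 to the left of replicate 2 within a group and the mean and SD of the 2 arrays in black. Every panel spans the same range of log2 units; Sox9 is higher on both Zip13KO arrays, Msx2 and Alpl are lower on both without passing the test, and the groups of the other 5 genes overlap.

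The Sox9 partners did not move with it past the test. Sox5 had log2 intensities of 6.79 and 6.64 on the Zip13KO arrays, against 6.61 and 6.74 on the WT arrays. Its groups overlapped, with a difference of 0.04 (95% interval -0.14 to 0.22, adjusted p = 0.861). Sox6 had 6.14 and 6.25 on the Zip13KO arrays, against 6.38 and 6.17 on the WT arrays. These overlapped too, with a difference of -0.08 (95% interval -0.27 to 0.10, adjusted p = 0.653). Sox6 lay below the array's median on all 4 arrays, and Sox5 lay above it on all 4. The difference of Sox9 from its partners was not tested, since they are separate genes of one fit.

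Genes of the osteoblast lineage among the members were also not past the threshold. Sp7 had log2 intensities of 7.58 and 7.67 on the Zip13KO arrays, against 7.58 and 7.74 on the WT arrays. The groups overlapped, and the difference was -0.03 (95% interval -0.21 to 0.14, adjusted p = 0.890). Runx1 had 9.01 and 8.95 on the Zip13KO arrays, against 9.00 and 8.84 on the WT arrays, with a difference of 0.06 (95% interval -0.10 to 0.23, adjusted p = 0.708). Runx1 is abundant in blood cells, so markers of those cells are given beside it. Of 10 measured haematopoietic markers 1 was higher and 2 were lower, against 7.00% and 10.1% of all genes. Of the 10, 6 lay above the array's median on at least 2 arrays. Spi1, Cd68, Cd14, Tyrobp and Cd3e lay above it on all 4 arrays and Csf1r on 3, while Ptprc (CD45), Itgam, Adgre1 and Lyz2 lay below it on all 4. The summed intensity of the 10 was 1056 and 1046 on the Zip13KO arrays, against 1110 and 1035 on the WT arrays. A place above the array's median does not show that these transcripts were present. The part of these markers in the Runx1 value was not tested.

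The measured homeodomain factors gave small differences, and neither passed after adjustment. Msx2 had log2 intensities of 6.57 and 6.57 on the Zip13KO arrays, against 6.67 and 6.81 on the WT arrays. Both Zip13KO arrays lay below both WT arrays, and the difference was -0.18 (95% interval -0.35 to -0.000805, unadjusted p = 0.0491 in limma), but it did not pass after adjustment (adjusted p = 0.190). Dlx5 had 6.99 and 6.91 on the Zip13KO arrays, against 6.92 and 6.85 on the WT arrays. Its groups overlapped, with a difference of 0.06 (95% interval -0.11 to 0.23, adjusted p = 0.745).

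Alpl had 2 rows, and they disagreed. In the brighter row the log2 intensity was 6.67 and 6.60 on the Zip13KO arrays, against 6.91 and 6.77 on the WT arrays. The groups did not overlap there, and the difference was -0.20 (95% interval -0.38 to -0.03, unadjusted p = 0.0263 in limma), without passing after adjustment (adjusted p = 0.120). The dimmer row had 6.43 and 6.48 on the Zip13KO arrays, against 6.38 and 6.56 on the WT arrays, and its groups overlapped. Its difference was -0.02 in a fit of all rows, and the mean of both rows differed by -0.11 (adjusted p = 0.436). Over all alternatives the adjusted p of Alpl lay between 0.0743 and 0.543.

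Groups that do not overlap were found for 3 of the 8 members (Sox9, Msx2 and Alpl), against 51.5% of all genes. An unadjusted p under 0.05 was reached by the same 3 members, against 25.9% of all genes. The intervals of the 7 members that did not pass reached at most a 1.17-fold higher and a 1.30-fold lower array intensity in Zip13KO fibroblasts. Each interval holds for its gene alone, and the lower bound is that of the brighter Alpl row. They do not bound the transcript level, since differences of dim genes are compressed on these arrays. Sox6 lay below the array's median on every array, and Msx2 lay above it on only 2. A missed threshold does not show that the 7 members were equal in both groups.

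**Figure D2:**
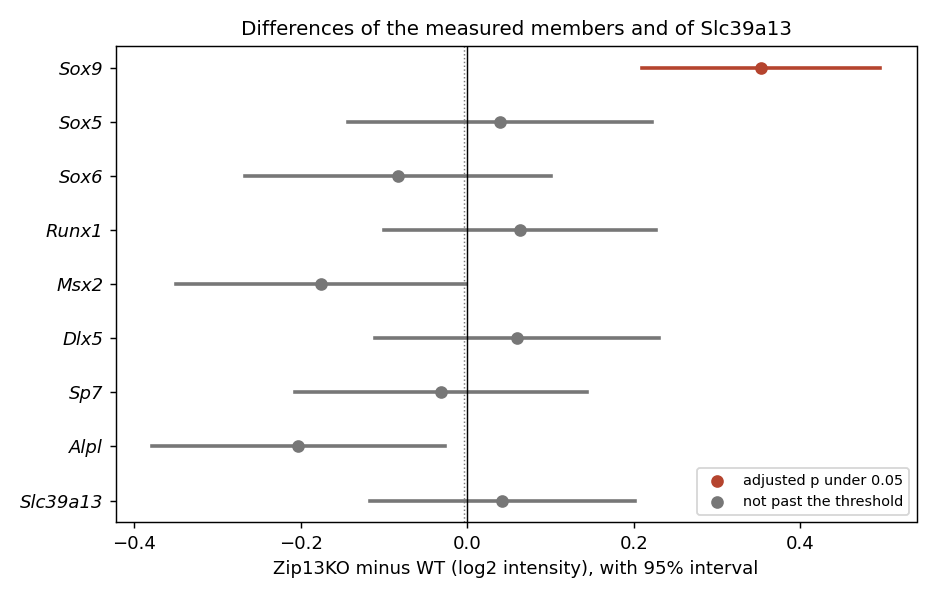
Difference between Zip13KO and WT in log2 intensity for the 8 measured members and Slc39a13, with 95% intervals from the fit over all genes. Sox9, at 0.35, has an interval clear of 0 and passes the adjusted test; the interval of Alpl also excludes 0 but its adjusted p is 0.120; the dotted line is the median of all genes.

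These factors act through short DNA motifs, and the RefSeq promoter windows of GRCm38.p6 (250 bases before to 50 after a gene's start) were searched for them on both strands. Windows were found for 7 members (14 windows, 6 of them of Sox6); Sox9, Dlx5 and Sp7 had none in that table. RUNX proteins bind TGTGGT or TGCGGT, which 22.4% of all 32851 windows hold. SOX proteins bind ACAAAG or ACAATG, held by 28.6% of windows, and homeodomains bind TAATTA or TAATTG, held by 12.4%. SP factors bind GGGCGG, held by 35.7%. The letters were found in 4 of the 14 member windows for RUNX, 8 for SOX, 1 for the homeodomain and 4 for SP, as a description of the sequence and not of binding. The windows below are shown because they carry letters of the members' own families, with every match in capitals, on the strand of the gene. The upstream Runx1 window (chr16:92826025-92826324, minus strand) and the Runx2 window (chr17:44814578-44814877, minus strand) hold 2 and 4 RUNX matches, most of them close together near the 3′ end of the window. The Msx2 window (chr13:53472731-53473030, minus strand) holds 1 homeodomain and 1 SP match, and the Alpl window of the upstream start (chr4:137796335-137796634, minus strand) holds 1 SOX and 3 SP matches.
Runx1: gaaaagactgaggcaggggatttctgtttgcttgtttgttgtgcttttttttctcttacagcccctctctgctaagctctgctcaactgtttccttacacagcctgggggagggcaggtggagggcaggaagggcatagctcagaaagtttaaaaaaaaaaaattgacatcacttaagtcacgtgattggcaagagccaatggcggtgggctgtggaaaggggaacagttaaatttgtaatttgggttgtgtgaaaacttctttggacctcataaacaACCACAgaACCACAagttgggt
Runx2: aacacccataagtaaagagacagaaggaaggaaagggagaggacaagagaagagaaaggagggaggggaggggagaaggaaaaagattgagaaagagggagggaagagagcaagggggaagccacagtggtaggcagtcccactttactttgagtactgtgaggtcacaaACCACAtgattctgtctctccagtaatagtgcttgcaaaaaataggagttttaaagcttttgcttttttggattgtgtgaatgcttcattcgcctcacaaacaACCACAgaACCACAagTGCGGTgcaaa
Msx2: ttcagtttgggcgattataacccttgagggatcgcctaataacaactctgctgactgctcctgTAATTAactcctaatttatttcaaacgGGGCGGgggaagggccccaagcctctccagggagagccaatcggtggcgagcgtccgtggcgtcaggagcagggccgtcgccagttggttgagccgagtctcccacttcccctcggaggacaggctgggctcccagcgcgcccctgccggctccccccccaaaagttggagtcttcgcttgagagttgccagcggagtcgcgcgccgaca
Alpl: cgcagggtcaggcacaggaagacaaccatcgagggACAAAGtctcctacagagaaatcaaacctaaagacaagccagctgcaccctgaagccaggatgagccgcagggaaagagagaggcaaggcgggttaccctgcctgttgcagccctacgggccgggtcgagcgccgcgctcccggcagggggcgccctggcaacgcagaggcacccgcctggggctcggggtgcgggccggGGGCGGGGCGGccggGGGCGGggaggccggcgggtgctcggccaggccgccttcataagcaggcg

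Cartilage genes, a list not limited to targets of Sox9, Sox5 and Sox6, were mostly dim and showed little change in array intensity. Of 22 measured, none rose past the threshold and 1 fell in limma, against 7.00% and 10.1% of all genes. An unadjusted p under 0.05 was reached by 2, both lower, against 25.9% of all genes. The median difference was -0.00400 against -0.00341 over all genes. Of the 22, 11 lay above the array's median on at least 2 arrays. Acan, Col9a1, Col10a1, Matn1, Matn3, Hapln1, Cnmd, Epyc, Chad, Prg4 and Fgfr3 lay below it on every array, so their differences may be compressed. The highest mean log2 intensity in the list was 7.74 in Zip13KO and 7.80 in WT. Missed calls among such genes do not show that they were equal in both groups. The one that fell was Col11a1, a fibrillar collagen chain of cartilage, with log2 intensities of 6.54 and 6.49 on the Zip13KO arrays against 7.08 and 7.26 on the WT arrays. Both Zip13KO arrays lay well below both WT arrays, a difference of -0.65 (SE 0.09, adjusted p = 2.04e-05). The direction is opposite to that of Sox9 on the same arrays. Col2a1, the main cartilage collagen, was at 6.82 and 6.82 on the Zip13KO arrays against 7.01 and 7.04 on the WT arrays, and did not pass (adjusted p = 0.0983); it was singled out after its value was seen. The Col11a1 window (chr3:114030290-114030589, plus strand) is shown because it belongs to the cartilage gene that changed. It holds 2 SP matches, in capitals, and none of the SOX letters.
Col11a1: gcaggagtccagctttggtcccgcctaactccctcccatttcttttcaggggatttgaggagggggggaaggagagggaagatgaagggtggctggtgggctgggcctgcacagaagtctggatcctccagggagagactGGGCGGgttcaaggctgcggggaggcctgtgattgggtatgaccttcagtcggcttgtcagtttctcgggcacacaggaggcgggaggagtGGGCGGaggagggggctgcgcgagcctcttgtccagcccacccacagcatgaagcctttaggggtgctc

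Bone matrix and mineralisation genes, which follow Runx2 and Sp7 in osteoblasts, changed in both directions. Of 14 measured, 5 were lower and 1 higher, against 10.1% and 7.00% of all genes, with a median difference of 0.04. Changes in the collagens were known when this list was chosen, so the count is not a test of it. The genes best known from osteoblasts and osteocytes (Bglap, Ibsp, Phex, Dmp1, Mepe, Sost and Ifitm5) did not pass. Bglap2, Spp1, Phospho1 and Enpp1 had no row of their own here. Of the 14, 8 lay above the array's median on at least 2 arrays. Bglap, Ibsp, Phex, Dmp1 and Mepe lay below it on every array, so their differences may be compressed. Mmp13, also below it on every array, differed by 0.18 and did not pass (unadjusted p = 0.0345 in limma, adjusted p = 0.147). Pdpn, the mucin-type surface protein podoplanin of early osteocytes and of many stromal cells, had log2 intensities of 9.44 and 9.37 on the Zip13KO arrays, against 11.07 and 11.10 on the WT arrays. This was the widest separation in the list, at -1.68 (SE 0.07, 3.21-fold lower, adjusted p = 2.91e-12). Ank, which moves the mineralisation inhibitor pyrophosphate out of the cell, was at 10.73 and 10.78 on the Zip13KO arrays against 9.63 and 9.52 on the WT arrays. It was the gene of the list that rose, by 1.18 (SE 0.07, 2.27-fold, adjusted p = 5.56e-10). Both type I collagen chains fell, Col1a1 by 0.89 and Col1a2 by 0.46 on the log2 scale (adjusted p = 2.79e-08 and 6.76e-05). The remaining 2 that fell were Smpd3 (-0.43), a sphingomyelinase needed for mineralisation, and Sparc (-0.20), the matrix protein osteonectin. Sparc did not pass without WT replicate 1 or WT replicate 2 (adjusted p = 0.185 and 0.0611), and Smpd3 did not pass with all rows of the table in the fit (adjusted p = 0.0716). Smpd3, Sparc and Mmp13 were singled out after their values were seen.

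**Figure D3:**
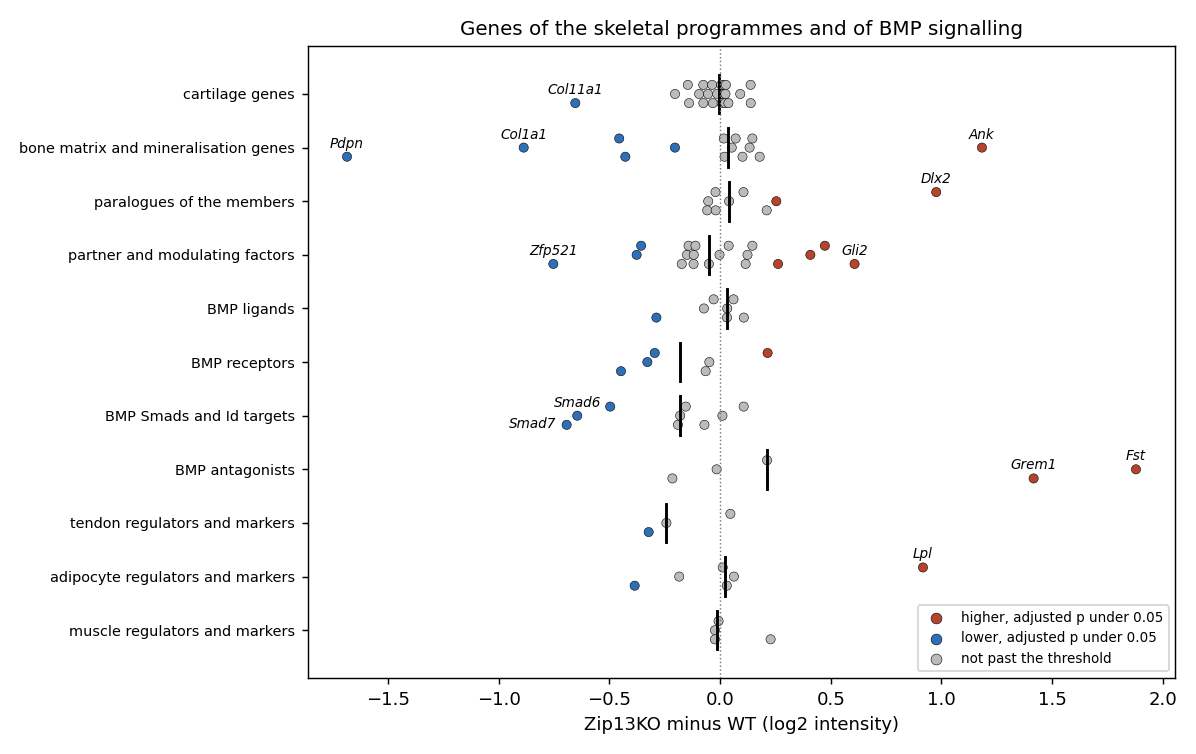
Difference between Zip13KO and WT in log2 intensity for each measured gene of the skeletal programmes, of the members' relatives and partners, and of BMP signalling; black bars are list medians and points are spread vertically for legibility. Cartilage genes lie close to 0 apart from Col11a1, while the bone list holds 5 genes past the threshold below 0 and 1 above it, and the BMP antagonist list holds 2 above it.

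Among paralogues of the members, Dlx2 stood out. It had log2 intensities of 9.28 and 9.23 on the Zip13KO arrays, against 8.28 and 8.28 on the WT arrays. The difference of 0.98 (SE 0.07, 1.97-fold, adjusted p = 1.72e-08) was far wider than the spread of either pair of replicates. Dlx2 is a homeodomain factor of the same family as Dlx5, known in craniofacial mesenchyme and forebrain. Of the 9 measured paralogues 2 rose and none fell in limma, against 7.00% and 10.1% of all genes. An unadjusted p under 0.05 was reached by 3, all of them higher, against 25.9% of all genes. The other paralogue that rose was Runx3, a factor of cartilage maturation and lymphocytes, by 0.25 (adjusted p = 0.0343). Runx3 lost its call when any 1 of the 4 arrays was left out (adjusted p from 0.0531 to 0.190). Dlx6, which lies beside Dlx5 and is often active with it, was at 6.59 and 6.49 on the Zip13KO arrays against 6.43 and 6.44 on the WT arrays (adjusted p = 0.488), and was singled out after its value was seen. Sox8, Sox10, Sox13, Dlx3, Dlx4 and Msx3 did not pass. Sox13, at 0.21, was the remaining gene with an unadjusted p under 0.05 in limma. Its log2 intensities were 7.79 and 7.59 on the Zip13KO arrays, against 7.38 and 7.58 on the WT arrays. The Sox13 difference was therefore wider without Zip13KO replicate 2 or without WT replicate 2.

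Among 19 factors that bind or modulate the members, 4 rose and 3 fell, against 7.00% and 10.1% of all genes. Their median difference was -0.05. Gli2, a transcription factor of hedgehog signalling, was at 8.24 and 8.33 on the Zip13KO arrays against 7.66 and 7.70 on the WT arrays, a difference of 0.61 (SE 0.08, adjusted p = 1.52e-05). Twist2, which restrains Runx2 activity in early osteoblasts, rose by 0.47 (adjusted p = 1.69e-04), and Foxc1, a forkhead factor of skull and cartilage development, rose by 0.41 (adjusted p = 8.53e-04). Zfp521, a zinc-finger protein that antagonises Runx2, was at 7.17 and 7.01 on the Zip13KO arrays against 7.80 and 7.88 on the WT arrays. It fell by 0.75 on the log2 scale (SE 0.08, adjusted p = 2.83e-06). The remaining 3 that passed were singled out after their values were seen. Cbfb, the shared partner subunit of all RUNX proteins, was at 9.99 and 10.06 on the Zip13KO arrays against 10.39 and 10.37 on the WT arrays, a difference of -0.36 (adjusted p = 7.41e-04). Prrx1, a homeodomain factor of limb mesenchyme, differed by -0.38, and Hdac4, a histone deacetylase that represses Runx2, by 0.26. Hdac4 did not pass without Zip13KO replicate 1, WT replicate 1 or WT replicate 2 (adjusted p from 0.0723 to 0.116).

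BMP signalling acts upstream of Msx and Dlx genes, and its genes are given by role. Of 27 measured, 3 rose and 7 fell, against 7.00% and 10.1% of all genes, with a median difference of -0.06. Earlier results known when these genes were chosen already showed changes in Fst, Grem1 and Smad7. The count is therefore not a test of the pathway. Among 7 ligands only Bmp4 passed, at 6.96 and 6.85 on the Zip13KO arrays against 7.16 and 7.22 on the WT arrays (difference -0.29, adjusted p = 0.0195). It did not pass without Zip13KO replicate 2 (adjusted p = 0.131) or WT replicate 2 (adjusted p = 0.109). Of 6 receptors, 3 fell and 1 rose. Bmpr1b, a type I receptor of cartilage condensations, differed by -0.45 (adjusted p = 3.60e-04), though it lay below the array's median on all 4 arrays. Acvr1, another type I receptor, differed by -0.33 (adjusted p = 0.00546, and 0.0568 with all rows of the table in the fit), and the type II receptor Acvr2a differed by -0.29 (adjusted p = 0.0190). Bmpr1a, also a type I receptor, rose by 0.21 (adjusted p = 0.0443). The call of Acvr2a was lost without Zip13KO replicate 2 (adjusted p = 0.187) and without WT replicate 1 (adjusted p = 0.103). Bmpr1a did not pass without Zip13KO replicate 1, WT replicate 1 or WT replicate 2 (adjusted p from 0.104 to 0.241).

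Of the 9 Smad and Id genes, 3 fell and none rose past the threshold in limma, against 10.1% and 7.00% of all genes. An unadjusted p under 0.05 was reached by 5, all of them lower, against 25.9% of all genes. The change in Smad7 was known when the list was chosen, so neither count is a test of it. Smad6, an inhibitory Smad induced by BMPs, had log2 intensities of 6.71 and 6.72 on the Zip13KO arrays, against 7.41 and 7.30 on the WT arrays. Its difference was -0.64 (SE 0.08, adjusted p = 1.30e-05). Smad7, an inhibitory Smad that TGF-beta also induces, differed by -0.69 (adjusted p = 7.29e-06), and Id3, a helix-loop-helix target of BMP Smads, by -0.50 (adjusted p = 4.42e-04). The related target Id1 was at 9.26 and 9.18 on the Zip13KO arrays against 9.38 and 9.21 on the WT arrays and did not pass (adjusted p = 0.671); it was singled out after its value was seen. Id3 did not pass with all rows of the table in the fit (adjusted p = 0.0546).

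Secreted antagonists gave the widest differences among the BMP genes. Fst, the activin and BMP antagonist follistatin, had log2 intensities of 9.89 and 9.75 on the Zip13KO arrays, against 8.01 and 7.87 on the WT arrays. It rose by 1.88 (SE 0.08, 3.68-fold, adjusted p = 8.58e-12). Grem1, which binds and blocks BMP2 and BMP4, was at 11.85 and 11.88 on the Zip13KO arrays against 10.48 and 10.43 on the WT arrays, 1.42 higher (SE 0.06, adjusted p = 9.59e-12). Of the 5 measured antagonists these 2 rose and none fell, against 7.00% and 10.1% of all genes, and Nog, Chrd and Bambi did not pass. Fst and Grem1 were already known to change when the list was chosen, so its count is not a test of the list. Nog differed by -0.21 (adjusted p = 0.173), but by -0.38 without Zip13KO replicate 2, where it passed as lower (adjusted p = 0.00374), and by -0.05 without Zip13KO replicate 1 (adjusted p = 0.883). Bambi, a decoy receptor of the BMP and TGF-beta pathways, differed by 0.21 (adjusted p = 0.0767) and passed as higher after further quantile normalization (adjusted p = 0.0325). On the same arrays Msx2 and Dlx5, which lie downstream of BMP receptors, did not pass.

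**Figure D4:**
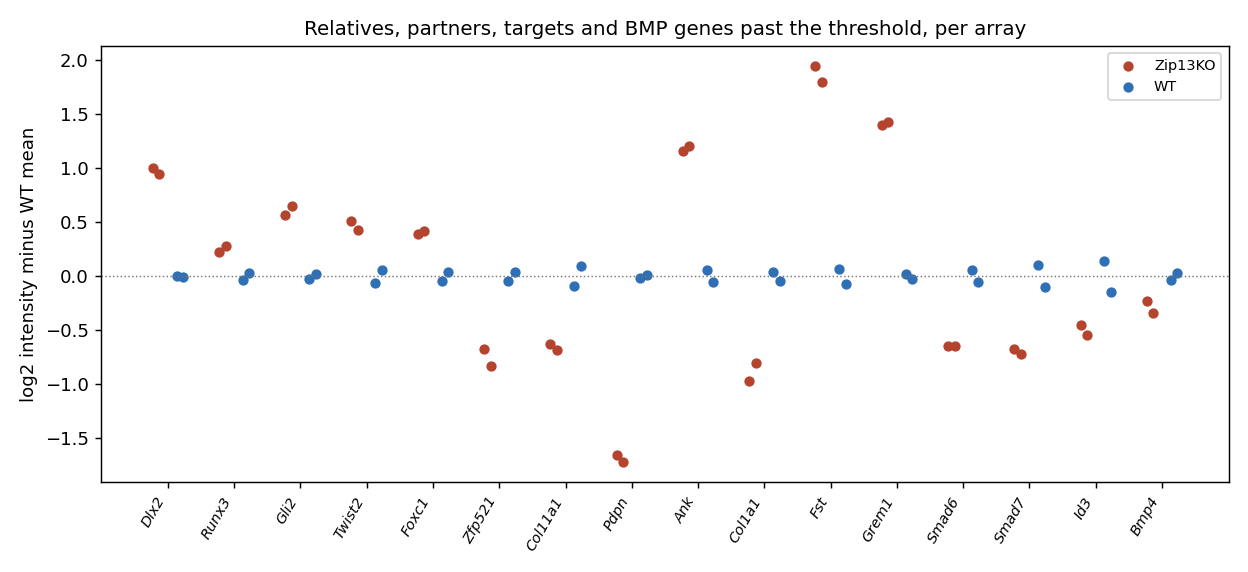
Log2 intensity on each array minus the WT mean for 16 genes past the threshold among the relatives, partners, programme genes and BMP genes, with replicate 1 to the left of replicate 2 in each group. In each of them the 2 Zip13KO arrays lie together on one side of the 2 WT arrays, from 1.88 above for Fst to 1.68 below for Pdpn on average.

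Among regulators and markers of neighbouring mesenchymal lineages, 1 of 3 tendon genes, 2 of 6 adipocyte genes and none of 4 muscle genes passed, against 17.1% of all genes. Of the tendon genes, Mkx, a homeodomain factor of tendon, differed by -0.32 (adjusted p = 0.0172), and it did not pass without Zip13KO replicate 1 (adjusted p = 0.108) or WT replicate 1 (adjusted p = 0.220). Scx, the transcription factor scleraxis of tendon progenitors, differed by -0.24 (adjusted p = 0.0652). It passed as lower with the filter on dim rows (adjusted p = 0.0439), with arrays centred on their median (adjusted p = 0.0484), and without Zip13KO replicate 1 (adjusted p = 0.0258) or WT replicate 2 (adjusted p = 0.0439). In the adipocyte list, Pparg, the regulator of fat cell formation, differed by -0.39 (adjusted p = 0.00189), while Lpl, lipoprotein lipase, rose by 0.92 (adjusted p = 8.97e-07), or by 0.53 as the mean of its 2 rows. Among muscle genes none passed in limma and 1 had an unadjusted p under 0.05, which was Des at 0.23 (adjusted p = 0.0571, and 0.0480 in eBayes without trend).

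Markers of other cell types were compared in the same fit. Of the 12 fibroblast markers, 6 fell and 1 rose, against 10.1% and 7.00% of all genes. With the replicate block, and also without the trend, 5 fell. Changes in the collagens and several markers were already known when the lists were chosen, so these counts are not a test of the list. Col1a1 and Col1a2 are among those that fell, and they are the same rows already counted in the bone list. Pdgfra, a receptor of mesenchymal progenitors, rose by 1.04 and its relative Pdgfrb differed by -0.92 (adjusted p = 2.46e-08 and 2.13e-07), and the matrix protein fibronectin (Fn1) differed by -0.67. The summed intensity of the 12, both type I collagen chains included, was 16092 and 16840 on the Zip13KO arrays, against 21709 and 20690 on the WT arrays. Among the haematopoietic markers Cd68 differed by 0.40, Cd14 by -0.32 and Csf1r by -0.26, and Cd68 was at 0.13 without WT replicate 2 (adjusted p = 0.562). Csf1r was not past the threshold without Zip13KO replicate 2 or WT replicate 1 (adjusted p = 0.255 and 0.212), nor was Cd14 without Zip13KO replicate 2 (adjusted p = 0.0917). None of 5 endothelial or 6 keratinocyte markers passed in limma, with 1 in each at an unadjusted p under 0.05, Cdh5 at 0.20 (adjusted p = 0.124) and Krt14 at -0.26 (adjusted p = 0.0592, and 0.00185 without Zip13KO replicate 2). Of 5 Schwann cell and melanocyte markers, the receptor Erbb3 rose by 0.50 (adjusted p = 0.00120, and 0.0792 with all rows of the table in the fit), while Sox10, the defining factor of that lineage and a relative of Sox9, differed by -0.05. Summed intensities of these 3 lists lay between 438 and 697 on the Zip13KO arrays and between 404 and 706 on the WT arrays. The part of these markers in the Sox9 difference was not tested.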

How the data were processed

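Total RNA of mouse fibroblasts was hybridised to Affymetrix Mouse Gene 2.0 ST arrays, 2 per genotype. The authors deposited linear intensity, from 21.8 to 10826. Per the submitters' processing notes, it was made with Affymetrix Expression Console and RMA (no version stated), a method that subtracts background, quantile-normalizes arrays and summarises the probes of each row on a log2 scale, so the authors appear to have raised the values to a linear scale. Normalization between arrays hides a change shared by most genes, and whole-transcript summaries compress differences of dim genes.

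Log2 was taken with no pseudocount and no filter. Platform annotation gave 1 symbol to 23521 of 41345 rows, several to 1814 and none to 16010. By gene ID 23328 matched RefSeq GRCm38.p6, which changed 0 symbols. For the 1082 genes with several rows the brightest was kept. All 22180 genes entered limma 3.58.1 in R 4.3.3 (eBayes with trend, 2 residual and 15.1 prior degrees of freedom), two-sided. Differences are Zip13KO minus WT. The fit was checked on simulated data with known changes. Figures used matplotlib 3.10.9.

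Named were the 10 members, Slc39a13 and, per list, up to 4 genes past the threshold with the largest difference, or else the gene with the smallest p. The members and lists were chosen with earlier results of these data known, which already showed changes in Fst, Grem1, Smad7, the collagens and several markers. Alternatives were the replicate block, a filter on dim rows, further quantile normalization, median centring, eBayes without trend or robust, the mean of a gene's rows, all rows in the fit, and each array left out; crossed replicate numbers were added after seeing the data.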

Additional observations from a re-analysis of the deposited data

How the results depend on the processing

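Sox9 kept its direction and its call in all 13 alternatives, and the count of members past the threshold was 1 higher and 0 lower in each of them. Leaving out 1 array at a time turned the sign of small differences that had not passed: the range was -0.0387 to 0.117 for Sox5, -0.186 to 0.0194 for Sox6, -0.0151 to 0.142 for Runx1, -0.112 to 0.0490 for Sp7, -0.158 to 0.0175 for Id1 and -0.00554 to 0.0898 for Slc39a13, with no call in any. Those fits leave 1 group with a single array, whose spread is taken to equal that of the complete group. The dim-row filter removed Sox6. When all 41345 rows entered the fit and the adjustment, genes past the threshold were 669 higher and 1137 lower, against 1552 and 2234, and genes of the lists were 9 higher and 13 lower, against 14 and 24. Named genes that did not pass then were Runx3, Hdac4, Smpd3, Sparc, Bmp4, Acvr1, Acvr2a, Bmpr1a, Id3, Mkx, Cd68, Cd14, Csf1r and Erbb3 (adjusted p from 0.0546 to 0.310). This alternative adds rows without a single gene name to both the variance estimate and the adjustment. Leaving out 1 array gave 1125 to 1545 higher and 1590 to 2346 lower genes, and 11 to 14 and 19 to 24 in the lists. Same-numbered replicates did not deviate together (correlation of deviations -0.12). With the replicate block, genes past the threshold were 1374 higher and 1990 lower, the Sox9 adjusted p was 0.00198, Bmpr1a, Hdac4 and Sparc lost their calls and Krt14 gained one. Without the trend, Bmpr1a and Sparc lost their calls and Des gained one, and with robust variance Cd68 lost its call and Krt14 gained one. With the replicate block, and also without the trend, 5 fibroblast markers were lower, against 6 in the main fit. Scx gained a call with the dim-row filter and with median centring, and Bambi with further quantile normalization. Leaving out Zip13KO replicate 2 gave one to Nog and Krt14, and leaving out Zip13KO replicate 1 or WT replicate 2 gave one to Scx. Leaving out Zip13KO replicate 2 or WT replicate 2 also gave one to a paralogue other than Dlx2, Dlx6 and Runx3. With crossed numbers 2203 were higher and 3005 lower. In the lists 3 paralogues and 3 BMP antagonists were then higher, 5 Smad and Id genes lower and 2 tendon genes lower.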
